A study of Mus musculus with 20 samples.

Results

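The cone phosphodiesterase and the cone cyclic nucleotide-gated channel are built from the products of 4 genes, Pde6c, Pde6h, Cnga3 and Cngb3. Each was taken by its symbol from the deposited expression tables of whole mouse retina. All 4 were present at both ages, among the 1497 genes tabulated at postnatal day 21 (P21) and the 566 tabulated at postnatal day 2 (P2). The 20 samples came from 5 genotypes on the C57BL/6J strain with 2 samples per genotype and age, and each sample was a pool of 2 retinas. CrxRip/Rip and CrxRip/+ retinas carry the Rip allele of the photoreceptor homeobox gene Crx on both chromosomes or on one, Crx-/- retinas lack functional Crx, Nrl-/- retinas lack the rod-determining leucine zipper factor Nrl, and WT retinas carry neither change. The labels give no treatment and no deletion that all groups share.

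Light absorbed by a cone opsin activates cone transducin, which releases the inhibitory hold on phosphodiesterase. The enzyme then breaks down cyclic GMP, and the cyclic nucleotide-gated channel of the outer segment closes. Pde6c encodes the catalytic subunit of the cone enzyme and Pde6h its inhibitory gamma subunit. Cnga3 encodes the pore-forming alpha subunit of the cone channel and Cngb3 the modulatory beta subunit. Loss of PDE6C, CNGA3 or CNGB3 causes achromatopsia in humans. Rods use paralogous proteins, encoded by Pde6a, Pde6b, Pde6g, Cnga1 and Cngb1, and retinas without Nrl form cone-like photoreceptors in place of rods.

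On GRCm38 the GENCODE transcripts linked to the 4 listed RefSeq entries all lie on the plus strand, and their spans are given here. Pde6c (NM_033614, 22 exons) spans chr19:38132946-38183739, Pde6h (NM_023898, 4 exons) chr6:136954523-136968865, Cnga3 (NM_009918, 6 exons) chr1:37219205-37263384 and Cngb3 (NM_013927, 18 exons) chr4:19280850-19510623. The Pde6h span ends beyond the RefSeq gene, which ends at 136963485. The annotation over which the deposited values were counted is not given, so it need not have used these spans. RefSeq promoter sequence (GRCm38.p6) starting from the listed transcript was matched for Pde6h and Cnga3, 2 of the 4 genes. Both are shown since they were the ones matched, and their genes are the 2 that were below WT in CrxRip/Rip at both ages. Each sequence gives the 250 bases before the transcript start, and capitals mark TAANCC on either strand. This pattern includes letters bound by homeobox factors such as Crx and Otx2.
Pde6h, chr6:136954273-136954522: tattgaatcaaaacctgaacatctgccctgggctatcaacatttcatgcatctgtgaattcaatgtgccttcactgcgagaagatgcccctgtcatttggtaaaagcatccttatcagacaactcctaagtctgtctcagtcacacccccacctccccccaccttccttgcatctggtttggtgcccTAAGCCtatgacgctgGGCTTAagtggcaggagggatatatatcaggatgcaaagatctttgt
Cnga3, chr1:37218955-37219204: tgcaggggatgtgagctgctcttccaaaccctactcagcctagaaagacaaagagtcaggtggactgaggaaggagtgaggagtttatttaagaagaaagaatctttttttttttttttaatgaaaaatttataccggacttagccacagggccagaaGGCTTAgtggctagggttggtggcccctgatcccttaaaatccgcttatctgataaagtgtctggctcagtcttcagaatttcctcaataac
The Pde6h promoter held TAAGCC on the plus strand, beginning 63 bases before the start, and GGCTTA, its reverse complement, 47 bases before it. The Cnga3 promoter held 1 GGCTTA, 92 bases before the start. TAANCC or its reverse was found in 25.9% of 32851 mouse promoters of the same length. It was searched after both promoters had been read, and it overlaps TAATC wherever its N is T and the letter C follows. Neither promoter held TAATC (in 19.8% of all promoters), TGCTGA, the core of the Nrl response element (16.1%), or AGGTCA, a nuclear receptor half-site (14.0%), on either strand. Such matches describe letters only.

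Values are FPKM, which divides a transcript's fragments by its length and by the library's mapped fragments, so they are shares of a library and their read depth is unknown. They were deposited to 1 decimal. Every tabulated gene had passed the authors' selection for a difference between some pair of genotypes, so shares of called genes describe selected genes only. Summed over the P21 table, FPKM came to between 21569.4 and 40702.0 in the mutant samples, against 53395.9 and 55335.3 in WT. At P2 the sums ran from 4168.3 to 5777.3 over all samples. Nrl itself was at 0.2 FPKM in both Nrl-/- samples at P21, against 427.6 and 466.1 in WT. Crx was at 167.9 and 171.4 FPKM in Crx-/- at P21, against 343.9 and 350.7 in WT, and the tables do not show which part of the gene those fragments cover. A difference was called when its adjusted p was under 0.05 in a limma fit of log2(FPKM + 1) to the 10 samples of an age. All log2 differences are on that scale, which understates changes of low values. With 2 samples per group, an exact permutation test cannot go below p = 0.333 (two-sided), so each call rests on a spread pooled over genes and genotypes. Nothing states whether the samples of a group came from separate litters, so the p-values measure only the spread between these samples. In whole retina, fewer cones and less RNA per cone cannot be told apart.

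**Figure D1:**
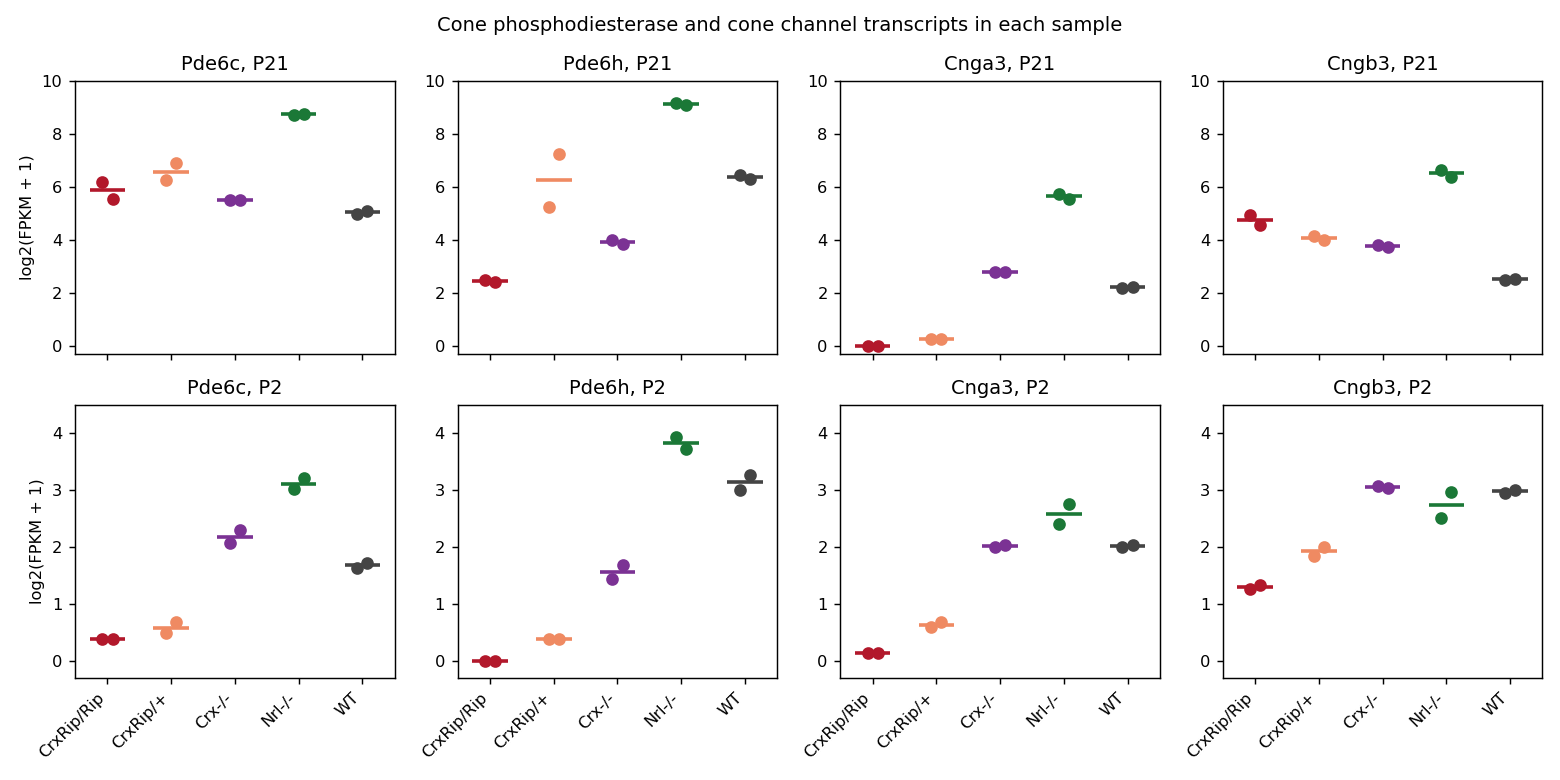
Levels of Pde6c, Pde6h, Cnga3 and Cngb3 as log2(FPKM + 1) in each sample (points) with the mean of each genotype (bars), at P21 above and P2 below, on separate vertical scales. At P21 Cnga3 lay at 0 in both CrxRip/Rip samples while Cngb3 lay at 29.6 and 22.5 FPKM in the same samples.

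At P21 the 4 subunits did not move as a set in retinas with the Rip allele or without Crx. In CrxRip/Rip the catalytic subunit Pde6c and the channel beta subunit Cngb3 were higher than in WT, and the inhibitory subunit Pde6h and the channel alpha subunit Cnga3 were lower. All 4 differences were called, in a comparison that called 80.6% of the table. In CrxRip/+ 3 of 4 were called (74.5% of the table), with Pde6c and Cngb3 higher and Cnga3 lower. In Crx-/- 3 of 4 were called (81.3% of the table), with Cnga3 and Cngb3 higher and Pde6h lower. In Nrl-/- all 4 were higher (72.2% of the table called, 40.4% of it higher). These shares are high for every comparison at P21, so the number of calls says little and the directions and sizes carry the description.

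Pde6c was highest in Nrl-/- at P21 and lowest in WT. It was at 73.1 and 46.1 FPKM in CrxRip/Rip, 76.3 and 118.9 in CrxRip/+, 45.2 and 44.8 in Crx-/- and 425.8 and 429.0 in Nrl-/-, against 30.9 and 33.3 in WT. Every mutant sample lay above both WT samples. The mean was 13.3 times the WT mean in Nrl-/- (log2 difference 3.69, 95% interval 3.15 to 4.24, adjusted p = 3.06e-06). In CrxRip/+ it was 3.04 times WT (log2 1.54, 0.99 to 2.09, adjusted p = 0.000494). In CrxRip/Rip it was 1.86 times WT (log2 0.84, 0.29 to 1.39, adjusted p = 0.0107), a call that was lost without CrxRip/Rip replicate 1 (log2 0.51, adjusted p = 0.0647) or without WT replicate 1 (adjusted p = 0.0587). In Crx-/- the log2 difference of 0.48 was not called (-0.07 to 1.02, adjusted p = 0.0948), whereas it was called when the fit held only the 4 samples compared (adjusted p = 0.00212). The authors' deposited table gives that difference as a log2 fold change of 0.26 with an adjusted p of 0.0485. In falling order of mean the genotypes were Nrl-/-, CrxRip/+, CrxRip/Rip, Crx-/- and WT, and neither CrxRip/Rip and Crx-/- nor Crx-/- and WT were told apart by the fit.

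Pde6h, whose product holds the enzyme inactive in the dark, ran the other way in CrxRip/Rip and Crx-/-. It was at 4.7 and 4.3 FPKM in CrxRip/Rip, 37.5 and 149.9 in CrxRip/+, 14.9 and 13.3 in Crx-/- and 580.2 and 543.3 in Nrl-/-, against 86.3 and 78.4 in WT. The CrxRip/Rip and Crx-/- samples lay below both WT samples and the Nrl-/- samples above them, while the 2 CrxRip/+ samples lay on either side of WT. The WT mean was 18.3 times the CrxRip/Rip mean (log2 difference -3.92, 95% interval -5.07 to -2.77, adjusted p = 0.000126) and 5.84 times the Crx-/- mean (log2 -2.47, -3.62 to -1.31, adjusted p = 0.00182). The Nrl-/- mean was 6.82 times WT (log2 2.76, adjusted p = 0.00121), the smallest of the 4 increases there as a ratio. For CrxRip/+ no difference from WT could be stated: the log2 difference was -0.13 with an interval of -1.28 to 1.02 (adjusted p = 0.823). It came to 0.86 without CrxRip/+ replicate 1 (adjusted p = 0.000526) and to -1.11 without CrxRip/+ replicate 2 (adjusted p = 0.000154), so the sample that is kept sets its sign.

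The same 2 CrxRip/+ samples also differed in other genes. Replicates 1 and 2 had 131.1 and 60.2 FPKM of Rcvrn, the calcium sensor recoverin, and 3.0 and 9.2 FPKM of the reactive glial gene Serpina3n. The sample with more Pde6h thus had less Rcvrn and more Serpina3n, and these genes were picked after their values were seen. Whether that has a part in the Pde6h values was not tested.

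Cnga3 was below WT with the Rip allele and above it without Crx. It was listed at 0 in both CrxRip/Rip samples and at 0.2 FPKM in both CrxRip/+ samples. It was at 6.0 FPKM in both Crx-/- samples and at 52.8 and 46.4 in Nrl-/-, against 3.6 and 3.7 in WT. No genotype overlapped another. Both Rip genotypes were below WT (log2 differences of -2.22 in CrxRip/Rip, adjusted p = 1.79e-07, and -1.95 in CrxRip/+, adjusted p = 6.65e-07), and no ratio is given at values so close to the rounding. The Crx-/- mean was 1.64 times WT (log2 0.59, 95% interval 0.38 to 0.80, adjusted p = 0.000426) and the Nrl-/- mean 13.6 times WT (log2 3.44, adjusted p = 3.67e-08). The order of the means was Nrl-/-, Crx-/-, WT, CrxRip/+ and CrxRip/Rip.

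Cngb3, the partner of Cnga3 in the channel, was higher than WT in all 4 mutants. It was at 29.6 and 22.5 FPKM in CrxRip/Rip, 16.7 and 15.2 in CrxRip/+, 13.2 and 12.3 in Crx-/- and 99.9 and 83.3 in Nrl-/-, against 4.7 and 4.8 in WT. No mutant overlapped WT, and the CrxRip/Rip samples lay above those of CrxRip/+ and Crx-/-. The means were 19.3 times WT in Nrl-/- (95% interval of the log2 difference 3.68 to 4.33, adjusted p = 1.41e-07) and 5.48 times in CrxRip/Rip (log2 2.22, 1.90 to 2.55, adjusted p = 1.93e-06). They were 3.36 times WT in CrxRip/+ (log2 1.56, adjusted p = 2.25e-05) and 2.68 times in Crx-/- (log2 1.26, adjusted p = 5.85e-05). In falling order the genotypes were Nrl-/-, CrxRip/Rip, CrxRip/+, Crx-/- and WT, and only CrxRip/+ and Crx-/- were not told apart among neighbours (adjusted p = 0.107).

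**Figure D2:**
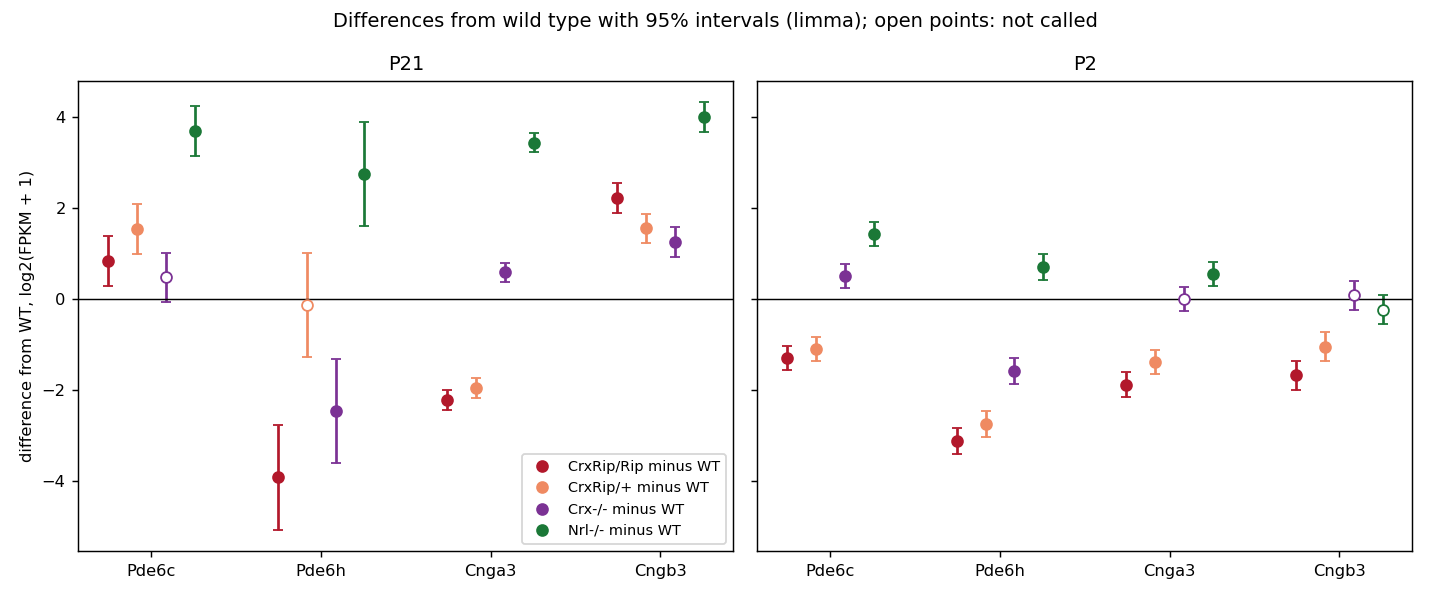
Differences of each mutant from WT on the log2(FPKM + 1) scale with 95% intervals from the limma fit, at P21 (left) and P2 (right). Open points were not called. At P21 Cngb3 was above WT in every mutant, and Cnga3 was below WT in both Rip genotypes alone.

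The rod marker genes fell in every mutant at P21, whereas Pde6h and Cnga3 fell in some mutants and rose in others. All 6 of 6 markers (Sag, Gnat1, Pde6b, Cnga1, Nrl and Nr2e3) were called lower in each mutant. The comparisons with WT called 72.2% to 81.3% of the table in either direction. Their summed level was 126.7 and 110.2 FPKM in CrxRip/Rip, 263.5 and 272.4 in CrxRip/+, 905.0 and 797.8 in Crx-/- and 703.4 and 769.0 in Nrl-/-, against 7256.3 and 7033.2 in WT. Sag made up most of that sum in CrxRip/Rip (118.4 and 104.0 FPKM), CrxRip/+ (231.2 and 234.7) and Nrl-/- (687.4 and 753.0). In Crx-/- Sag was at 440.6 and 379.8 FPKM. The sums thus do not rank the mutants by the other markers. Pde6b was at 15.5 and 15.3 FPKM in Nrl-/- and at 189.6 and 163.3 in Crx-/-. Cnga1 was listed at 0 in both CrxRip/Rip and both Nrl-/- samples, and Nr2e3 in both CrxRip/Rip samples. FPKM is a share, so less rod RNA leaves more of a library to other cells, and the part of this in the higher Pde6c and Cngb3 values was not tested. Rescaling all samples by the median of ratios moved the P21 comparisons with WT by at most 0.18 on the log2 scale, as a mean over the table. Single subunits could move more, as Pde6h in Nrl-/- did, from 2.76 to 2.53. The direction of every subunit difference from WT stayed in place. That rescaling centres on the tabulated genes, which were all selected for a difference. It therefore cannot decide the part that library shares have in these values. The 3 tabulated markers of glial reaction out of 6 listed summed to 26.5 to 29.2 FPKM in CrxRip/Rip, 40.0 to 58.6 in CrxRip/+, 51.2 to 56.7 in Crx-/- and 28.4 to 31.0 in Nrl-/-, against 14.0 to 14.1 in WT, and their part was not tested either. The 6 cone markers (Opn1sw, Opn1mw, Arr3, Gnat2, Gnb3 and Gngt2) summed to 355.4 to 469.1 FPKM in CrxRip/Rip, 853.0 to 923.0 in CrxRip/+, 737.1 to 854.6 in Crx-/- and 5428.8 to 5605.2 in Nrl-/-, against 592.7 to 648.7 in WT. These sums mix falls and rises. In CrxRip/+ 3 were called higher and 3 lower, and in CrxRip/Rip 2 and 3 (74.5% and 80.6% of the table called). In Crx-/- too the opsins and Arr3 fell while the transducin genes rose.

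Differences in markers of other cells were called too, in comparisons that called 72.2% to 81.3% of the table in either direction. Calls on so few genes are therefore near the background. The 3 tabulated pigment epithelium markers of 6 listed summed to 24.4 to 35.5 FPKM in CrxRip/Rip, 25.7 to 27.3 in CrxRip/+, 30.5 to 51.4 in Crx-/- and 21.5 to 31.0 in Nrl-/-, against 5.6 to 11.8 in WT. All 3 were called higher in CrxRip/Rip, Crx-/- and Nrl-/- and 2 in CrxRip/+. The 3 tabulated bipolar markers of 8 listed summed to 49.7 to 56.8 FPKM in CrxRip/Rip, 82.4 to 91.4 in CrxRip/+, 97.1 to 97.8 in Crx-/- and 207.1 to 214.8 in Nrl-/-, against 74.5 to 92.5 in WT. These 3 genes did not move together. In Nrl-/- Cabp5 was at 159.1 and 155.0 FPKM, against 32.5 and 45.6 in WT, while Prkca was at 30.8 and 29.5, against 36.6 and 41.0. In CrxRip/Rip Lhx4 was at 11.6 and 11.5 FPKM, against 5.4 and 5.9 in WT, while Cabp5 and Prkca were lower. The 1 tabulated Müller glia marker was called higher in CrxRip/Rip, CrxRip/+ and Crx-/-, and the 1 microglia marker in CrxRip/+ and Crx-/-. The 1 horizontal cell marker was called lower in CrxRip/Rip and Crx-/-, and 1 of 2 progenitor markers in CrxRip/Rip, CrxRip/+ and Nrl-/-. No amacrine or ganglion cell marker was tabulated. The part of these cells in the subunit values was not tested.

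Between the mutants at P21, one copy of the Rip allele and a pair of copies gave different levels of the same genes. In CrxRip/Rip against CrxRip/+ all 4 were called (47.0% of the table called), Cngb3 higher (log2 0.66, adjusted p = 0.00588) and the others lower. Pde6h showed the greatest gap (log2 -3.79, adjusted p = 0.000604). The calls for Pde6c (log2 -0.70, adjusted p = 0.0407) and Cnga3 (log2 -0.26, adjusted p = 0.0473, listed at 0 against 0.2 FPKM) were lost under several other settings, and no single omission kept all 4 calls. Those settings included leaving out a single WT sample (adjusted p = 0.0687 and at least 0.0800). The Cngb3 call was lost with only the 4 samples compared (adjusted p = 0.0732). In CrxRip/Rip against Crx-/- 3 of 4 were called (53.4% of the table), Cngb3 higher (log2 0.96, adjusted p = 0.000679), Cnga3 lower (log2 -2.81, adjusted p = 2.1e-07) and Pde6h lower (log2 -1.46, adjusted p = 0.0382). That Pde6h call was lost when any sample other than those of CrxRip/+ was left out, with log2 differences of -1.53 to -1.38. In CrxRip/+ against Crx-/- 3 of 4 were called (52.6% of the table). Pde6c (log2 1.07, adjusted p = 0.00603) and Pde6h (log2 2.34, adjusted p = 0.0048) were higher and Cnga3 was lower (log2 -2.54, adjusted p = 4.61e-07). The Pde6h call was lost with only the 4 samples compared (adjusted p = 0.0569), and its log2 difference was 3.32 without CrxRip/+ replicate 1 and 1.35 without CrxRip/+ replicate 2. All 4 were lower than in Nrl-/- in each of the other mutants, in CrxRip/Rip (66.8% of the table called, 45.6% lower), CrxRip/+ (48.8% called, 27.7% lower) and Crx-/- (65.1% called, 39.4% lower).

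Because the subunits work as pairs, the level of one partner relative to the other was compared within each sample. At P21 the FPKM ratio of Cngb3 to Cnga3 was 83.5 and 76.0 in CrxRip/+, 2.2 and 2.05 in Crx-/- and 1.89 and 1.80 in Nrl-/-, against 1.31 and 1.30 in WT. In CrxRip/Rip no ratio exists, since Cnga3 was listed at 0, and the CrxRip/+ ratio rests on a Cnga3 value of 0.2 FPKM, where rounding is coarse. The difference of log2(FPKM + 1) between the 2 genes varied over genotypes beyond the spread between samples (exact permutation test of the F statistic over all ways of pairing the 10 samples, p = 0.00106, the smallest it can give, adjusted p = 0.00254 over 12 tests). The channel transcripts were thus most unequal in both Rip genotypes.

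The phosphodiesterase pair shifted as well. The FPKM ratio of Pde6h to Pde6c at P21 was 0.0643 and 0.0933 in CrxRip/Rip, 0.491 and 1.26 in CrxRip/+, 0.330 and 0.297 in Crx-/- and 1.36 and 1.27 in Nrl-/-, against 2.79 and 2.35 in WT. All 8 mutant samples lay below both WT samples, and the inhibitory transcript was the more abundant per length in both Nrl-/- and WT but in neither CrxRip/Rip nor Crx-/-. The same exact permutation test gave p = 0.00106 (adjusted p = 0.00254). The difference of log2(FPKM + 1) varied over genotypes for all 6 pairs of the 4 genes at P21, and for all 6 at P2. Adjusted p lay between 0.00254 and 0.0180 over the 12 exact tests. As a description, Pearson's r over the 10 samples of P21, which share 5 genotypes, was 0.91 between Pde6c and Cngb3 and 0.51 between Cnga3 and Cngb3. At P2 the 6 correlations lay between 0.76 and 0.96.

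**Figure D3:**
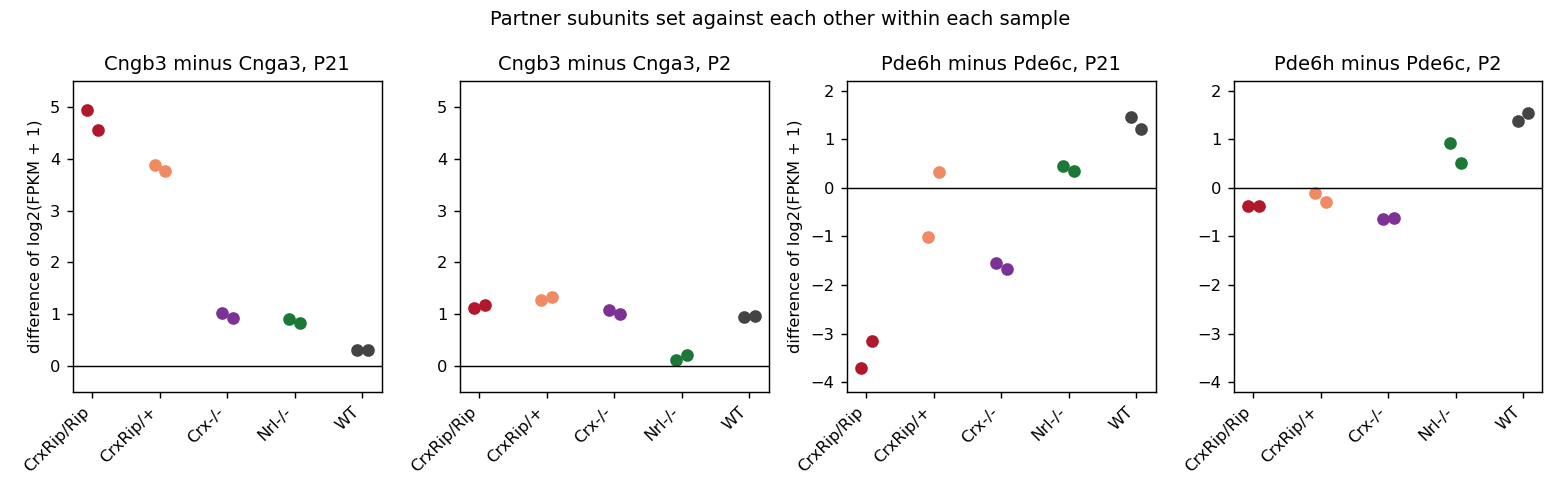
Partner subunits set against each other in each sample, as the difference of log2(FPKM + 1), for Cngb3 minus Cnga3 (left pair, P21 then P2) and Pde6h minus Pde6c (right pair). At P21 the channel difference was largest in CrxRip/Rip and CrxRip/+, and the phosphodiesterase difference was above 0 in Nrl-/-, WT and 1 CrxRip/+ sample.

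At P2, when rods are still being born, all 4 transcripts were low and moved together in the Rip genotypes. All 4 were called lower than in WT in CrxRip/Rip (27.0% of the table called, 21.2% lower) and in CrxRip/+ (16.4% called, 12.7% lower), shares well under those of P21. In Crx-/- 2 of 4 were called, Pde6c higher and Pde6h lower (29.9% of the table called). In Nrl-/- 3 of 4 were called, all higher (83.6% called, 18.9% higher). Of the 6 rod markers 5 were tabulated at P2, and all 5 were called lower in CrxRip/Rip and in Nrl-/-, 2 in CrxRip/+ and 1 in Crx-/-. They summed to 104.6 and 124.9 FPKM in CrxRip/Rip, 235.9 and 275.7 in CrxRip/+, 245.6 and 282.0 in Crx-/- and 1.4 and 0.9 in Nrl-/-, against 253.6 and 305.5 in WT, and their part in the subunit differences was not tested. The 4 tabulated bipolar markers summed to 30.7 to 31.7 FPKM in Nrl-/- at P2, against 14.1 to 14.5 in WT. Of these 2 were called higher and 2 were not called, and their part was not tested. The 4 tabulated cone markers summed to 69.1 and 84.7 FPKM in CrxRip/Rip and 175.8 and 209.4 in CrxRip/+, against 318.7 and 356.4 in WT. They summed to 296.6 and 352.6 FPKM in Crx-/- and 421.7 and 411.8 in Nrl-/-. All 4 were called lower in CrxRip/Rip, 3 in CrxRip/+ and 2 in Crx-/-, and 2 were called higher in Nrl-/-. The part of the cone markers was not tested either.

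Pde6c at P2 was at 0.3 FPKM in both CrxRip/Rip samples, 0.4 and 0.6 in CrxRip/+, 3.2 and 3.9 in Crx-/- and 7.1 and 8.2 in Nrl-/-, against 2.1 and 2.3 in WT. Both Rip genotypes lay below WT and the other mutants above it, with log2 differences of -1.30 in CrxRip/Rip (adjusted p = 4.77e-05), -1.10 in CrxRip/+ (adjusted p = 0.000505) and 1.43 in Nrl-/- (adjusted p = 2.38e-05). The Crx-/- mean was 1.61 times WT (log2 0.50, 95% interval 0.24 to 0.77, adjusted p = 0.0164). That call was lost without WT replicate 1 (log2 0.46, adjusted p = 0.0745) and without Crx-/- replicate 2 (log2 0.39, adjusted p = 0.1).

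Pde6h at P2 was listed at 0 in both CrxRip/Rip samples. It was at 0.3 FPKM in both CrxRip/+ samples, 1.7 and 2.2 in Crx-/- and 14.3 and 12.2 in Nrl-/-, against 7.0 and 8.6 in WT. The genotypes did not overlap. The log2 differences from WT were -3.13 in CrxRip/Rip (adjusted p = 1.17e-06), -2.75 in CrxRip/+ (adjusted p = 3.87e-06), -1.58 in Crx-/- (adjusted p = 0.000145) and 0.70 in Nrl-/- (adjusted p = 0.000865). The WT mean was 4.0 times the Crx-/- mean, and the Nrl-/- mean was 1.70 times WT.

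Cnga3 at P2 was at 0.1 FPKM in both CrxRip/Rip samples, 0.5 and 0.6 in CrxRip/+, 3.0 and 3.1 in Crx-/- and 4.3 and 5.7 in Nrl-/-, against 3.0 and 3.1 in WT. Crx-/- and WT had the same values at this precision (log2 difference 0.00, 95% interval -0.27 to 0.27). Both Rip genotypes lay below WT, at log2 differences of -1.88 in CrxRip/Rip (adjusted p = 1.04e-05) and -1.39 in CrxRip/+ (adjusted p = 0.000144), and Nrl-/- lay above it at 0.56 (adjusted p = 0.00199).

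Cngb3 at P2 was at 1.4 and 1.5 FPKM in CrxRip/Rip, 2.6 and 3.0 in CrxRip/+, 7.4 and 7.2 in Crx-/- and 4.7 and 6.8 in Nrl-/-, against 6.7 and 7.0 in WT. The Rip genotypes were below all other samples, with log2 differences from WT of -1.68 in CrxRip/Rip (adjusted p = 3.65e-05) and -1.05 in CrxRip/+ (adjusted p = 0.00151). Crx-/- (log2 0.08, 95% interval -0.24 to 0.40, adjusted p = 0.653) and Nrl-/- (log2 -0.24, -0.56 to 0.09, adjusted p = 0.147) were not called. The Nrl-/- value depends on the scaling. Rescaling by the median of ratios centres on the tabulated genes, which were all selected for a difference. Their median log2 difference in Nrl-/- against WT was -0.76 before it and -0.04 after it, so it cannot decide the sign. It shifted that comparison by a mean of 0.80 over the table at this age. With samples so rescaled, the Cngb3 difference of Nrl-/- from WT was 0.69 (adjusted p = 0.00598). Without Nrl-/- replicate 2 it was -0.46 (adjusted p = 0.00509), and the authors' deposited table gives -0.08 with an adjusted p of 0.643.

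Among the mutants at P2, 2 of 4 were called in CrxRip/Rip against CrxRip/+ (14.1% of the table called, 11.3% lower), Cnga3 (log2 -0.49, adjusted p = 0.0231) and Cngb3 (log2 -0.63, adjusted p = 0.0190), both lower. The Cnga3 call was lost when any of the 4 samples compared was left out (log2 -0.54 to -0.45 over single omissions). It set 0.1 FPKM against 0.5 and 0.6, close to the rounding. The Cngb3 call was lost without CrxRip/+ replicate 2 or CrxRip/Rip replicate 1 (log2 -0.71 to -0.56 over single omissions). Neither call held after rescaling by the median of ratios. Against Crx-/- all 4 were lower in CrxRip/Rip (41.3% called, 23.1% lower) and in CrxRip/+ (28.6% called, 12.5% lower). Against Nrl-/- all 4 were lower in CrxRip/Rip (89.2% called, 28.3% lower) and in CrxRip/+ (85.7% called, 24.0% lower), and 3 of 4 were lower in Crx-/- (78.8% called, 18.9% lower). Cngb3 was the exception there (log2 0.32, adjusted p = 0.0652), and its sign depends on the scaling. The log2 difference came to -0.45 after rescaling by the median of ratios (adjusted p = 0.0472) and to 0.54 without Nrl-/- replicate 2. That rescaling cannot decide the sign, for the reason given above. The ratio of Cngb3 to Cnga3 at P2 was 5.2 and 5.0 in CrxRip/+, 2.47 and 2.32 in Crx-/- and 1.09 and 1.19 in Nrl-/-, against 2.23 and 2.26 in WT. The ratio of Pde6h to Pde6c was 0.75 and 0.5 in CrxRip/+, 0.531 and 0.564 in Crx-/- and 2.01 and 1.49 in Nrl-/-, against 3.33 and 3.74 in WT. No ratio is given for CrxRip/Rip, where Cnga3 was at 0.1 FPKM and Pde6h at 0. The exact permutation test was of the difference of log2(FPKM + 1) over all 5 genotypes, not of these ratios (p = 0.00106, adjusted p = 0.00254 for each pair). At such low values that difference shrinks, so a fall of both levels alone can give a low p.

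Set side by side, the 2 ages gave opposite signs for Pde6c and Cngb3 in both Rip genotypes. Cngb3 differed from WT by 2.22 at P21 and -1.68 at P2 in CrxRip/Rip, and by 1.56 at P21 and -1.05 at P2 in CrxRip/+ (log2). Pde6c differed by 0.84 at P21 and -1.30 at P2 in CrxRip/Rip, and by 1.54 at P21 and -1.10 at P2 in CrxRip/+. Cnga3 was below WT at both ages in both, and Pde6h was below WT at both ages in CrxRip/Rip. The mean of Cngb3 in CrxRip/Rip was 26.1 FPKM at P21 and 1.45 at P2, while in WT it was 4.75 at P21 and 6.85 at P2. Such a change of sign was also seen among the 4 cone markers tabulated at P2. In CrxRip/+ Gnat2 differed by -2.23 at P2 and 1.08 at P21, and Gnb3 by -1.39 at P2 and 1.08 at P21. In CrxRip/Rip Gnat2 differed by -2.48 at P2 and 0.27 at P21, and Gngt2 by -1.66 at P2 and 1.88 at P21. Opn1sw was lower at both ages in both. Gngt2 in CrxRip/+ was not called at P2 (-0.26), nor Gnb3 in CrxRip/Rip at P21 (0.05). Each age was tabulated separately and the ages were not tested against each other.

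Other genes of cone transduction were taken from a list of 22, of which 21 were tabulated at P21. In CrxRip/Rip 3 of the 21 were higher and 17 lower (median log2 difference -2.72, against -0.14 over the table), in CrxRip/+ 4 higher and 16 lower (median -1.54, against 0.13 over the table), in Crx-/- 4 higher and 15 lower (median -1.57, against -0.04 over the table) and in Nrl-/- 8 higher and 10 lower (median -0.28, against 0.17 over the table). In the same order 80.6%, 74.5%, 81.3% and 72.2% of the table were called, so the number called says little. The list includes genes that rods also use. The cone opsin genes fell to 2.7 FPKM or less in the 3 genotypes with an altered Crx gene. Opn1sw, the short-wavelength opsin, was at 0.2 FPKM in both CrxRip/Rip samples, 1.2 and 0.9 in CrxRip/+ and 2.7 in both Crx-/- samples, against 164.5 and 141.0 in WT. Opn1mw, the middle-wavelength opsin, averaged 0.6 ± 0.141 FPKM in CrxRip/Rip, 0.7 ± 0 in CrxRip/+ and 0.7 ± 0.141 in Crx-/-, against 101 ± 4.53 in WT (SD, n = 2 each). Arr3, the cone arrestin that quenches the opsin, fell in a graded way, with log2 differences of -6.25 in CrxRip/Rip, -3.70 in CrxRip/+ and -1.44 in Crx-/-.

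The cone transducin genes did not follow the opsins. Gngt2, its gamma subunit, rose by log2 1.88 in CrxRip/Rip, 3.16 in CrxRip/+, 2.46 in Crx-/- and 3.67 in Nrl-/-. Gnat2, its alpha subunit, was called higher in all 4 (log2 0.27 in CrxRip/Rip, 1.08 in CrxRip/+, 0.74 in Crx-/- and 3.37 in Nrl-/-). Gnb3, its beta subunit, was higher in CrxRip/+ (log2 1.08), Crx-/- (1.47) and Nrl-/- (2.58), while in CrxRip/Rip the log2 difference was 0.05 (adjusted p = 0.746). Among the genes that fell most were Rcvrn (log2 -6.16 in CrxRip/Rip and -6.00 in Crx-/-), Guca1b, a guanylate cyclase activator (-5.62 in Crx-/-), and Gucy2f, a photoreceptor guanylate cyclase (-4.98 in CrxRip/+ and -4.71 in Nrl-/-). Of the genes that were not called, Aipl1, a chaperone of phosphodiesterase, averaged 280 ± 49.4 FPKM in CrxRip/+ and 337 ± 22.1 in Crx-/-, against 303 ± 29.1 in WT (SD, n = 2 each). In CrxRip/Rip Aipl1 was lower (log2 -2.15, adjusted p = 1.91e-06). Guca1a, another cyclase activator, averaged 445 ± 32.3 FPKM in Nrl-/- and 383 ± 29.3 in WT and was not called there (SD, n = 2 each).

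**Figure D4:**
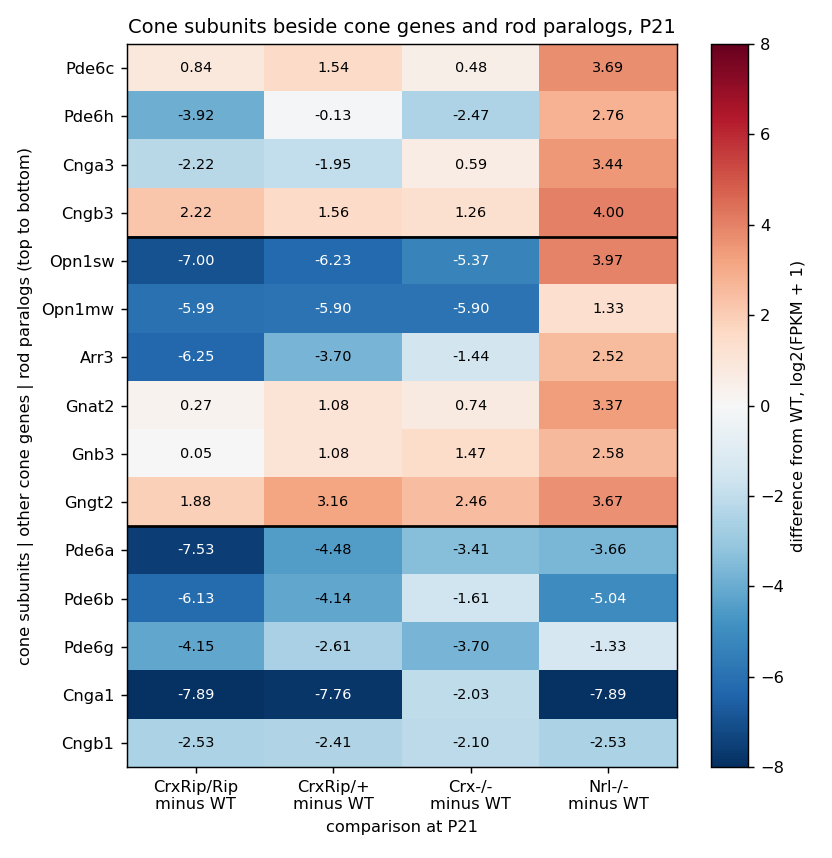
Differences from WT at P21 on the log2(FPKM + 1) scale for the 4 cone subunits (top), 6 other cone genes (middle) and 5 rod paralogs (bottom), with 1 column per mutant. All rod paralogs were below WT in every mutant, and the cone opsins fell with Crx changes where Cngb3 rose.

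The rod paralogs all fell at P21, 5 of 5 in every mutant, with median log2 differences of -6.13 in CrxRip/Rip, -4.14 in CrxRip/+, -2.10 in Crx-/- and -3.66 in Nrl-/-. Over the table the medians were -0.14, 0.13, -0.04 and 0.17 in the same order, with 72.2% to 81.3% of genes called. Pde6a, a rod catalytic subunit, was at 1.4 and 1.9 FPKM in CrxRip/Rip, 19.2 and 22.7 in CrxRip/+, 46.2 and 43.8 in Crx-/- and 36.3 and 39.1 in Nrl-/-, against 499.0 and 477.5 in WT. Pde6b, its catalytic partner, had log2 differences of -6.13 in CrxRip/Rip, -4.14 in CrxRip/+, -1.61 in Crx-/- and -5.04 in Nrl-/-. Pde6g, the rod inhibitory subunit and paralog of Pde6h, was least reduced in Nrl-/- (-1.33, against -4.15 in CrxRip/Rip, -2.61 in CrxRip/+ and -3.70 in Crx-/-). Cnga1, the rod channel alpha subunit, was listed at 0 in CrxRip/Rip and Nrl-/- and at 59.6 and 54.3 FPKM in Crx-/-, against 244.5 and 228.2 in WT. Cngb1, the rod channel beta subunit, averaged 0.15 ± 0.0707 FPKM in CrxRip/Rip, 0.25 ± 0.0707 in CrxRip/+, 0.55 ± 0.0707 in Crx-/- and 0.15 ± 0.0707 in Nrl-/-, against 5.65 ± 0.354 in WT (SD, n = 2 each). At P2, 3 of the 5 were tabulated, Pde6b, Pde6g and Cnga1, and all 3 were lower in CrxRip/Rip and in CrxRip/+. Pde6b and Cnga1 were lower in Nrl-/-, where Pde6g was not called (log2 -0.36), and Pde6g and Cnga1 were lower in Crx-/-, where Pde6b was not called (log2 0.08).

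Of 12 genes for factors that direct cone identity or photoreceptor fate, 7 were tabulated at P21. In CrxRip/Rip 4 were higher and 3 lower, in CrxRip/+ 3 and 2, in Crx-/- 4 and 1 and in Nrl-/- 4 and 2. The comparisons with WT called 72.2% to 81.3% of the table, so 5 to 7 of 7 called is near the background. Rxrg, the retinoid receptor of cones, was higher in CrxRip/Rip (log2 1.22), CrxRip/+ (2.32), Crx-/- (3.22) and Nrl-/- (2.47). Samd7, a photoreceptor repressor, was lower in CrxRip/Rip (-5.38), CrxRip/+ (-3.94) and Nrl-/- (-1.08) and higher in Crx-/- (1.69). Otx2, a homeobox factor related to Crx, was higher in CrxRip/Rip (1.76), CrxRip/+ (0.92), Crx-/- (1.29) and Nrl-/- (0.53). Prdm1, a repressor needed to keep photoreceptor fate, was higher in CrxRip/Rip (1.44), CrxRip/+ (1.06), Crx-/- (1.67) and Nrl-/- (1.75). Rorb, a nuclear receptor upstream of Nrl, fell in CrxRip/Rip (-0.77), CrxRip/+ (-1.16) and Nrl-/- (-1.16). Sall3, a zinc finger factor of short-wavelength cones, rose in CrxRip/Rip (0.62) and Nrl-/- (1.98). Crx itself was lower in CrxRip/Rip (-0.83) and Crx-/- (-1.03). Not called were Crx in CrxRip/+ (log2 -0.25, adjusted p = 0.104) and Nrl-/- (-0.12, adjusted p = 0.426) and Rorb in Crx-/- (-0.30, adjusted p = 0.0804).

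At P2, 11 cone transduction genes and 4 of the factors were tabulated. The comparisons with WT called 27.0% of the table in CrxRip/Rip (21.2% lower) and 16.4% in CrxRip/+ (12.7% lower). They called 29.9% in Crx-/- and 83.6% in Nrl-/- (18.9% higher). In CrxRip/Rip all 11 were lower (median log2 -2.03, against -0.06 over the table), as were all 4 factors. In CrxRip/+ 9 of 11 were lower (median -0.75, against -0.02 over the table) and 3 of 4 factors. In Crx-/- 5 of 11 were lower (median -0.40, against -0.14 over the table) and 1 factor, Thrb, the thyroid receptor that specifies middle-wavelength cones (log2 -0.57). In Nrl-/- 2 were higher and 4 lower (median -0.06, against -0.76 over the table), and 1 factor was higher and 3 lower. Opn1sw differed most from WT wherever Crx was altered, with log2 differences of -5.28 in CrxRip/Rip, -4.74 in CrxRip/+ and -3.77 in Crx-/-. Gnat2 fell by 2.48 in CrxRip/Rip and by 2.23 in CrxRip/+ on the log2 scale. In Nrl-/- Pdc, which encodes the transducin-binding protein phosducin, fell by 5.21. Among the factors, Samd7 was lower in CrxRip/Rip (log2 -4.42), CrxRip/+ (-2.28) and Nrl-/- (-3.66), while Sall3 was higher in Nrl-/- (log2 1.52).

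The genes whose pattern was most like each subunit were taken as the 5 highest Pearson correlations of log2(FPKM + 1) over the 10 samples of an age, which describe 5 pairs of samples. At P21 these were Orai1, Clpb, Tcta, Gramd3 and Pnp for Pde6c (r from 0.99 to 0.96) and Cldn5, Zfpm1, Cdhr1, Septin4 and Ccl9 for Pde6h (0.98 to 0.96). They were Nhlrc2, Nme1, Lrp2, Ccdc136 and Spint1 for Cnga3 (0.95 to 0.93) and Pomt2, Krt222, Pcdh15, Kcnh6 and Sptssa for Cngb3 (0.98 to 0.96). No gene appeared for more than 1 subunit at P21. At P2 they were Fzd10, Mtnr1a, Wdr31, Podn and Ampd2 for Pde6c (0.97 to 0.95) and Zfp385b, Tpsg1, Ece1, Cacna1h and Pex5l for Cngb3 (0.97 to 0.95). For Pde6h they were Opn1sw, Gnat2, Syndig1l, Mylk and Cabp5 (0.98 to 0.96) and for Cnga3 Ccdc136, Gnb3, Gnat2, Riiad1 and Tafa3 (0.99 to 0.97). Gnat2 was thus listed for both Pde6h and Cnga3 at P2, and Ccdc136 for Cnga3 at both ages.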

How the data were processed

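RNA from whole retina was sequenced with a strand-specific TruSeq protocol, per the labels' protocols. Per the file headers, sample values are FPKM, which the authors deposited to 1 decimal in 1 table per age. The authors also deposited genotype means, adjusted p-values and log2 fold changes. Per the submitters' processing notes DESeq was used. The aligner, read counter, genome build and annotation release were not given in the sources used here. All 566 and 1497 genes pass the authors' selection (adjusted p under 0.05, absolute log2 of at least 1, mean of at least 2 FPKM). Counts cannot be recovered from FPKM, so depth is unknown.

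Here limma 3.58.1 (R 4.3.3) was fitted per age to log2(FPKM + 1) of 10 samples, with 1 term per genotype, a variance trend and no filter on low values. It had 5 residual degrees of freedom, plus 2.95 (P2) or 3.06 (P21) from moderation. There were 10 comparisons per age, two-sided, adjusted by Benjamini-Hochberg over the table, called under 0.05. The fit was tested on simulated data. Partner differences were tested by exact permutation in Python 3.11.15. Symbols were updated by accession. Motifs and positions used RefSeq and GENCODE on GRCm38.

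The subunits and lists were chosen with earlier results of these data known. Per list and comparison with WT, up to 3 called genes of largest change and 1 uncalled gene of highest mean were eligible for naming, together with all rod paralogs, the 5 genes most like each subunit and Nrl and Crx. Opn1sw, Opn1mw, Arr3, Gnat2, Gnb3 and Gngt2 were also chosen for their roles after values had been seen. The marker lists of bipolar, horizontal, amacrine, ganglion and pigment epithelial cells, Müller glia, microglia and progenitors were summed as well, and they had at most 4 tabulated genes each. A rod marker is not reported here and was left out of the rod list. Alternatives were another pseudocount (0.1), a filter (mean of at least 1 FPKM), rescaling by the median of ratios, no variance trend, a replicate block, only the 4 samples compared, and leaving out each sample.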

Additional observations from a re-analysis of the deposited data

Results flagged for a closer look

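4 subunit differences from WT had opposite signs at the 2 ages, with both mutant samples above both WT samples at P21 and below them at P2. Some other cone genes changed sign in the same way, among them Gnat2 in both Rip genotypes, while Opn1sw was lower at both ages. The difference between ages was not tested, since each age was tabulated separately. For Cngb3 the P21 value minus the P2 value of the log2 difference was 3.90 in CrxRip/Rip (2.22 at P21 and -1.68 at P2) and 2.61 in CrxRip/+ (1.56 at P21 and -1.05 at P2). For Pde6c it was 2.14 in CrxRip/Rip (0.84 at P21 and -1.30 at P2) and 2.64 in CrxRip/+ (1.54 at P21 and -1.10 at P2). Summed rod markers are given beside them, at 126.7 and 110.2 FPKM in CrxRip/Rip against 7256.3 and 7033.2 in WT at P21, and at 104.6 and 124.9 in CrxRip/Rip against 253.6 and 305.5 in WT at P2. In CrxRip/+ they were at 263.5 and 272.4 FPKM at P21 and at 235.9 and 275.7 at P2, where the sum overlapped that of WT. These sums cannot be compared between ages, since they hold 6 markers at P21 and 5 at P2, without Gnat1. At P21 the CrxRip/+ sum was mostly Sag (231.2 and 234.7 FPKM). Nr2e3 in CrxRip/+ was at 1.7 and 1.0 FPKM at P21 and at 121.1 and 153.3 at P2. The single markers differed. Of the 5 tabulated at P2, Pde6b and Cnga1 were called lower in CrxRip/+ and 3 were not called (16.4% of the table called). Pde6b was at 7.9 and 9.8 FPKM against 14.4 and 17.7 in WT, and Cnga1 at 0.1 in both samples against 3.1 and 6.2. The part of the rod markers in the signs was not tested.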

How the results depend on the processing

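Of the 480 values of the 80 subunit differences under alternatives other than leaving out a sample, 465 kept their direction and call, 9 lost the call, 4 gained it and 2 reversed. Of 800 values with a sample left out, 755 kept both, 34 lost the call, 10 gained it and 1 reversed. Rescaling by the median of ratios reversed Cngb3 at P2, to 0.69 in Nrl-/- against WT and to -0.45 in Crx-/- against Nrl-/-. That rescaling centres on genes that were all selected for a difference, so it cannot decide either sign. Leaving out CrxRip/+ replicate 1 reversed Pde6h in CrxRip/+ against WT at P21 (-1.11 to 0.86 over single omissions). For CrxRip/Rip against CrxRip/+ at P21, 2 subunits were called after rescaling, 2 with the replicate block, 2 with only the 4 samples compared and 2 to 3 over single omissions, against 4 with all samples. At P2 the same comparison had 0 calls in limma after rescaling (3 at an unadjusted p under 0.05) and 0 to 2 over single omissions. Crx-/- against WT at P2 had 1 to 2 over single omissions. The cause of these changes was not tested. Same-numbered samples did not deviate together (correlations of -0.24 to 0.33 at P2 and -0.30 to 0.24 at P21, over 0.1 in 4 of 10 pairs at each age), so numbers were not used as pairs. All 12 exact tests of partner differences kept an adjusted p under 0.05 with a pseudocount of 0.1. Genes called in the table moved most for CrxRip/Rip against CrxRip/+ at P21, 279 with only the 4 samples compared and 703 with all samples. At P2 rescaling gave 284 for Nrl-/- against WT (473 as deposited), 308 for CrxRip/+ against Nrl-/- (485) and 261 for Crx-/- against Nrl-/- (446). With only the 4 samples compared, P2 counts were 43 for CrxRip/Rip against CrxRip/+ (80 with all samples) and 133 for CrxRip/Rip against Crx-/- (234). Leaving out 1 sample of a compared pair at P2 gave 72 to 92 for Crx-/- against WT (169, any of the 4 samples), 78 to 93 for CrxRip/+ against Crx-/- (162, any of the 4), 55 for CrxRip/+ against WT (93, WT replicate 2), 51 for CrxRip/Rip against CrxRip/+ (80, CrxRip/+ replicate 2) and 136 for CrxRip/Rip against Crx-/- (234, Crx-/- replicate 2). Values under 1 FPKM are limited by the rounding.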
